A study of Mus musculus with 12 samples.

Results

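The genes described here were 43 mouse genes of the ATF4 program and of cytosolic tRNA charging. They were named by symbol, matched to the Ensembl identifiers of the count tables, and compared over 3 treatment groups of Rip1Tag2 tumors. All 43 were found among the 38924 gene identifiers of the tables, and all 43 passed the filter on low counts that left 16645 genes for testing. By role, 13 were stress factors, 12 were enzymes of serine, one-carbon and amino acid synthesis, 6 were amino acid transporters or transporter subunits, and 12 were cytosolic aminoacyl-tRNA synthetases. RNA-seq had been performed on 12 pancreatic neuroendocrine tumors (PanNETs), 4 from control mice given saline, 4 from mice on sunitinib, which blocks the VEGF receptors and related kinases, and 4 from mice on rapamycin, which blocks mTORC1, combined with sunitinib (R+S). Every group carried the RIP1TAG2 transgene on C57Bl6, in which the rat insulin promoter drives SV40 T antigen in the insulin-producing beta cells, and every group was dosed for 4 days from the age of 15.5 weeks. There was no group on rapamycin alone, so rapamycin was read only on top of sunitinib. The question put to these genes was which of them differed with sunitinib and which differed when mTOR was inhibited as well.

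ATF4 is a transcription factor whose own mRNA is translated more when the initiation factor eIF2 is phosphorylated on its alpha subunit, as happens when amino acids run short, when unfolded proteins gather in the endoplasmic reticulum or when heme is lacking. It pairs with C/EBP family proteins on promoters of genes that make, import and charge amino acids, and mTORC1 is known to raise ATF4 as well, through the stability and translation of its mRNA. Aminoacyl-tRNA synthetases join each amino acid to its tRNA, and those of the cytosol include many ATF4 targets. Beta cells secrete large amounts of protein, and this stress response is well known in them. The tables hold mRNA only, so neither the ATF4 protein nor the phosphorylation of eIF2 was measured.

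Values are normalized CPM, the reads of a gene as a share of all reads on genes, scaled between tumors by the trimmed mean of M values. The tumors held between 31872342 and 44215054 reads on genes (median 38526164). Sunitinib tumor 6 stood apart: across all tested genes it correlated with the other sunitinib tumors at 0.872 to 0.895, and every other pair of tumors within a group at 0.957 to 0.991. Its 10 beta cell markers summed to 4692 CPM, against 34801 to 80426 CPM in the other sunitinib tumors and 40447 to 64411 CPM in the control tumors. Of this sum 2849 CPM was Chga, which stood at 2581 to 3325 CPM in control and at 3757 to 4111 CPM in the other sunitinib tumors. Each of the other beta cell markers was lowest of all tumors here, such as Pdx1 at 4.17 CPM, against 263 to 328 CPM in the other sunitinib tumors. The 26 markers of acinar cells, the enzyme-secreting cells around the islets, summed to 42.6 to 144 CPM in control, 12928 to 46257 CPM in sunitinib and 3482 to 19410 CPM in R+S tumors, and 24 of the 26 were higher without overlap in each treated group than in control. The 10 endothelial markers summed to 475 to 652 CPM in control, 46.7 to 85.9 CPM in sunitinib and 107 to 142 CPM in R+S tumors. In such bulk samples fewer cells of a type and less RNA per cell cannot be told apart. The titles carry a prefix whose meaning is not stated. It was 1 prefix for all 4 control tumors, 2 other prefixes for the sunitinib tumors and 3 others for the R+S tumors, so whatever it marks cannot be told apart from the treatment. The labels do not say whether each tumor came from its own mouse, and p-values then measure the spread between these tumors.

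ATF4 and its C/EBP partners bind a composite site known as the C/EBP-ATF response element, which was searched as TGATGNAA on both strands of the RefSeq promoters (GRCm38.p6), from 250 bases before to 50 bases after each start. A RefSeq promoter was matched for 34 of the 43 members, and 12 of the 34 (35.3%) held the letters, against 3.97% of all 32851 promoters and 4.51% of the 27025 genes they belong to. The synthetases held them in 5 of 8 promoters, the stress factors in 4 of 12, the serine, one-carbon and amino acid group in 2 of 10 and the transporters in 1 of 4. Among the members found lower with R+S against sunitinib below, 3 of the 11 with a promoter held them. The members were chosen as an ATF4 program, so these shares describe the list and not an effect of treatment. The following stretches show where the letters stood in some members of each role whose values are described below. They are written 5′ to 3′ on the gene's own strand with the match in capitals, and a match on the opposite strand reads TTNCATCA.
Nupr1, chr7:126625562-126625591, minus strand: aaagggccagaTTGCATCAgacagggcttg
Trib3, chr2:152344028-152344057, minus strand: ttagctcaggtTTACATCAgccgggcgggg
Asns, chr6:7693214-7693243, minus strand: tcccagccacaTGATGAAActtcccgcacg
Pycr1, chr11:120643833-120643862, minus strand: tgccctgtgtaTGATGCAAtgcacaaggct
Slc7a11, chr3:50443661-50443690, minus strand: tctcatgtggcTGATGCAAacctggagaat
Gars, chr6:55037960-55037989, plus strand: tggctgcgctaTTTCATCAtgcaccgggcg
Tars, chr15:11399655-11399684, minus strand: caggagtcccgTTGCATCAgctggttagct
The word was TGATGCAA in Nupr1, Pycr1, Slc7a11 and Tars, TGATGTAA in Trib3 and TGATGAAA in Asns and Gars. Slc7a11 held a further match. By the GENCODE M21 annotation the matches of Nupr1 and Asns shown here lie in non-coding exon sequence of some transcript of the gene, and the other 5 lie outside the annotated gene. Relative to the RefSeq start, the Trib3 match lay downstream and the other 6 upstream. The promoters of Psat1, Phgdh, Psph, Shmt2 and Atf4 held no match in this window. A match is a description of letters and not a bound site.

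Levels between genes were compared per kilobase of exon. In control tumors the most abundant members per length were Gars at 144 CPM per kb, Atf5 at 130 CPM per kb, Atf4 at 128 CPM per kb and Asns at 97.7 CPM per kb. The least abundant were Gdf15 at 0.315 CPM per kb, Slc7a11 at 0.414 CPM per kb and Cth at 0.507 CPM per kb. Within groups, control tumor 2 was the highest of the 4 control tumors in 39 of the 43 members, whereas it was the highest in 23.2% of all tested genes, and it was so in all 12 synthetases and all 6 transporters. Its beta cell markers also had the highest sum among the control tumors, 64411 CPM. Of these markers Pdx1, Slc2a2 and Slc30a8 were higher in other control tumors. The acinar markers of control tumor 2 summed to 67.8 CPM. Sunitinib tumor 6 was the lowest of its group in 25 of the 43 members and in 32.9% of all tested genes, and R+S tumor 4 was the lowest in 24 of 43 and in 23.2% of all tested genes.

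**Figure D1:**
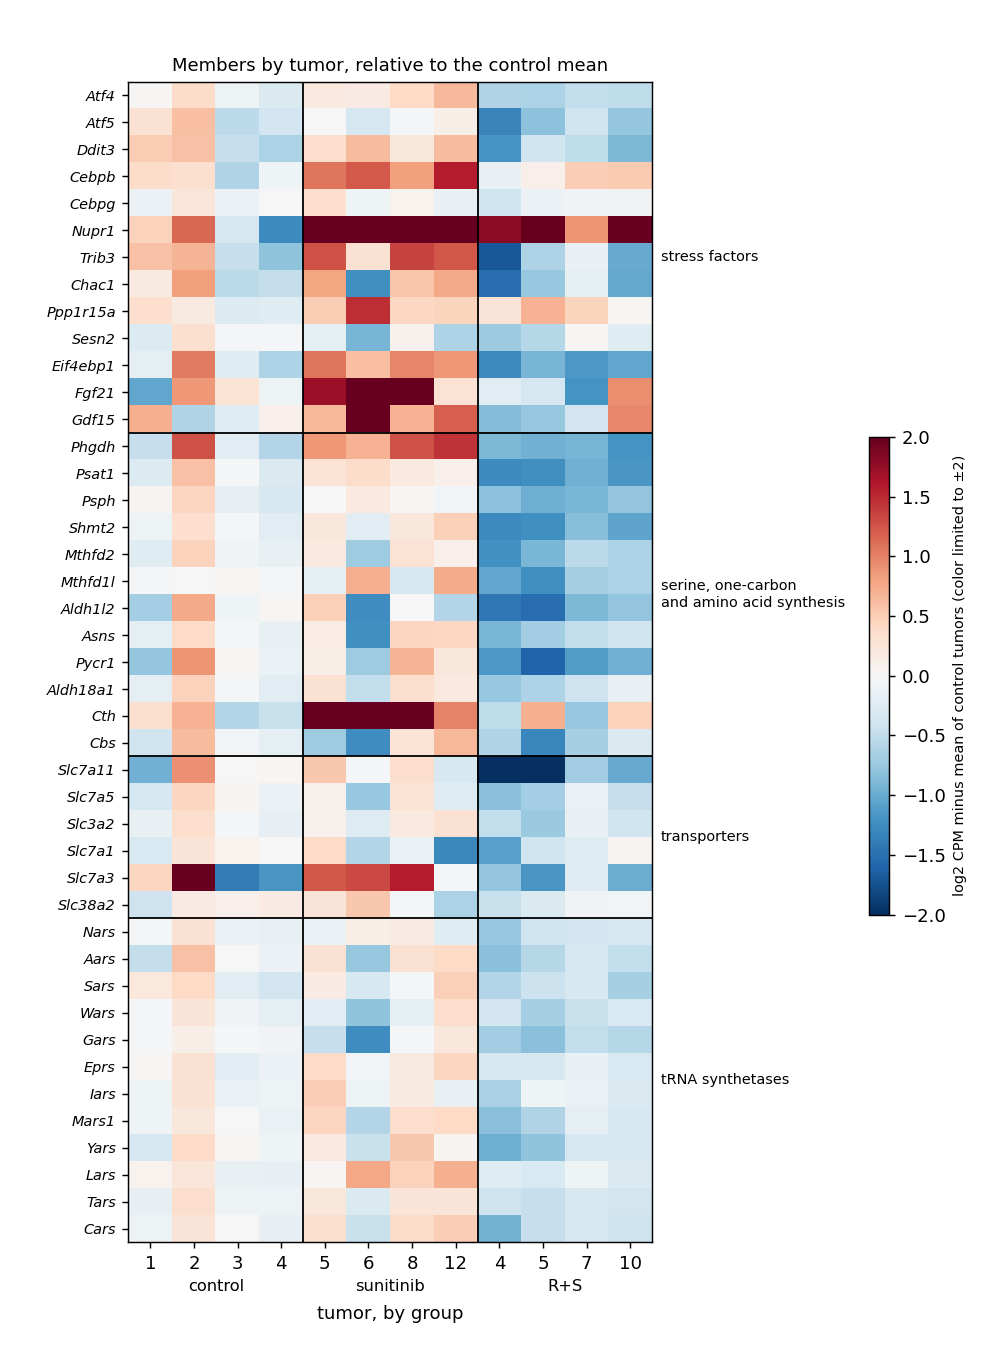
Log2 CPM of each member in each tumor minus the mean of the 4 control tumors, with the members in rows by role and the 12 tumors in columns by group (red higher, blue lower, colors limited to 2 in either direction). Control tumor 2 was the highest control tumor in 39 of 43 rows, most R+S columns are blue, and Nupr1 and Cth are red in the sunitinib columns.

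With sunitinib against control, most members did not pass the test, and 2 stress factors and the cysteine enzyme Cth rose. Of the 43 members, 3 were higher and 0 were lower past an adjusted p of 0.05 (quasi-likelihood test of edgeR), where 1.93% of all tested genes were higher and 2.55% lower (4.48% in either direction). The 3 were Nupr1, Cth and Cebpb. At an unadjusted p under 0.05 there were 11 members, beside 19.5% of all tested genes, and DESeq2 called 5 higher (these 3 with Fgf21 and Lars) and 0 lower. The median log2 fold change was 0.74 for the stress factors, 0.07 for the serine, one-carbon and amino acid group, 0.05 for the transporters and 0.11 for the synthetases, beside 0.03 over all tested genes. The tumors did not overlap for 4 members (higher), Cebpb, Nupr1, Ppp1r15a and Cth, where 5.17% of all tested genes were higher without overlap, and for 0 members (lower), beside 5.76%. The log2 fold change was above 0 in 33 of the 43 members, beside 53.3% of all tested genes. It was below 0 in 10, and on leaving out 1 tumor at a time in 4 (without control tumor 2) to 15 (without control tumor 1). Without control tumor 3 or without control tumor 4 only Nupr1 stayed past the threshold, where 440 and 474 of all genes tested were called. Without control tumor 2, 5 members passed, with Phgdh and Eif4ebp1 in addition. In that fit 14 members had an unadjusted p under 0.05, beside 17.1% of all genes tested. With the treated tumors of each prefix summed as 1 sample, 1 member passed and 10 had an unadjusted p under 0.05, beside 24% of all genes tested. The 4 control tumors, which share 1 prefix, were kept as single samples. Summing by prefix has this meaning below. With the mean log2 level of the acinar markers in the model 0 members passed and 1 had an unadjusted p under 0.05, beside 4.9% of all tested genes. In that fit 0 of all tested genes passed. The acinar sums of control and treated tumors do not overlap, so the fit cannot tell the acinar level from treatment against control.

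With R+S against control, most log2 fold changes of every role were below 0, and 4 members fell. The 4 were Psat1, Shmt2 and Psph, which make serine and turn it into glycine and one-carbon units, and Eif4ebp1, where 2.61% of all tested genes were lower. No member was higher at that threshold (0 of 43, beside 1.55% of all tested genes, with 4.16% called in either direction), and 27 members had an unadjusted p under 0.05, beside 20.1% of all tested genes. DESeq2 called 13 lower, adding Atf4, Atf5, Phgdh, Mthfd1l, Mthfd2, Aldh1l2, Pycr1, Slc7a11 and Nars, and 1 higher, Nupr1. The log2 fold change was below 0 in 39 of the 43 members and in 49% of all tested genes. The median was -0.89 for the serine, one-carbon and amino acid group, -0.49 for the transporters, -0.47 for the synthetases and -0.37 for the stress factors, beside 0.01 over all tested genes. The R+S tumors lay wholly below the control tumors in 17 of the 43 members (39.5%), beside 11.9% of all tested genes, and these 17 were 9 of the 12 serine, one-carbon and amino acid enzymes, 6 of the 12 synthetases, 2 stress factors and 0 transporters. In 0 members did they lie wholly above, beside 11.6% of all tested genes. Leaving out any 1 tumor left 3 or 4 members lower. Without control tumor 2, the tumor with the highest values, 4 members were still lower and 14 had an unadjusted p under 0.05, beside 16.6% of all tested genes. With the acinar markers in the model 0 were lower, 0 had an unadjusted p under 0.05, and 22 of the 43 log2 fold changes were below 0. Here too 0 of all tested genes passed, and the fit cannot tell the acinar level from treatment.

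With R+S against sunitinib alone, 15 of the 43 members fell (34.9%), beside 4.58% of all tested genes. These were 5 of the 13 stress factors, 7 of the 12 serine, one-carbon and amino acid enzymes, 3 of the 12 synthetases and 0 of the 6 transporters. No member was higher (0 of 43, beside 2.63% of all tested genes, with 7.21% called in either direction), by DESeq2 0 as well, and 34 members had an unadjusted p under 0.05, beside 30.4% of all tested genes. The log2 fold change was below 0 in 42 of the 43, and in 51.8% of all tested genes. It was above 0 in 1, Sesn2, and in 48.2% of all tested genes. The median was -1.18 for the stress factors, -1.06 for the serine, one-carbon and amino acid group, -0.56 for the synthetases and -0.46 for the transporters, beside -0.02 over all tested genes. In 20 of the 43 members (46.5%) every R+S tumor was below every sunitinib tumor, beside 9.73% of all tested genes, and in 0 was every R+S tumor above, beside 8.9%. The count of calls rested on single tumors. Without R+S tumor 4, without R+S tumor 5 or without R+S tumor 7, 0 members passed the adjusted threshold, and over all tested genes 1, 0 and 1 did. In these 3 fits 28, 30 and 33 members had an unadjusted p under 0.05, beside 24.6%, 22.9% and 24.9% of all genes tested, the 15 genes had adjusted p between 0.0622 and 0.131, and their log2 fold changes all stayed below 0. Without R+S tumor 10 the count was 7, where 314 of all 16904 genes tested were called in either direction. Without sunitinib tumor 12 it was 9, where 586 of all 16890 were called. Without sunitinib tumor 6 it was 27, with all 15 genes among them. In that fit 37 members had an unadjusted p under 0.05, beside 32.6% of all genes tested. DESeq2 called 28 lower, 3 transporters (Slc7a11, Slc3a2 and Slc7a3) among them. With the tumors of each prefix summed 11 members passed. These were 10 of the 15 with Mars1 in addition, and Ddit3, Psph, Pycr1, Cth and Eprs were lost. In that fit 30 members had an unadjusted p under 0.05, beside 31.2% of all genes tested. With the acinar markers in the model 6 passed and all 43 log2 fold changes were below 0. A fit of only the 8 tumors called 3 members, Eif4ebp1, Psat1 and Phgdh, and 3 genes in all. The comparisons with control share the control tumors and those with sunitinib share the sunitinib tumors, so their values stand side by side and are not independent.

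**Figure D2:**
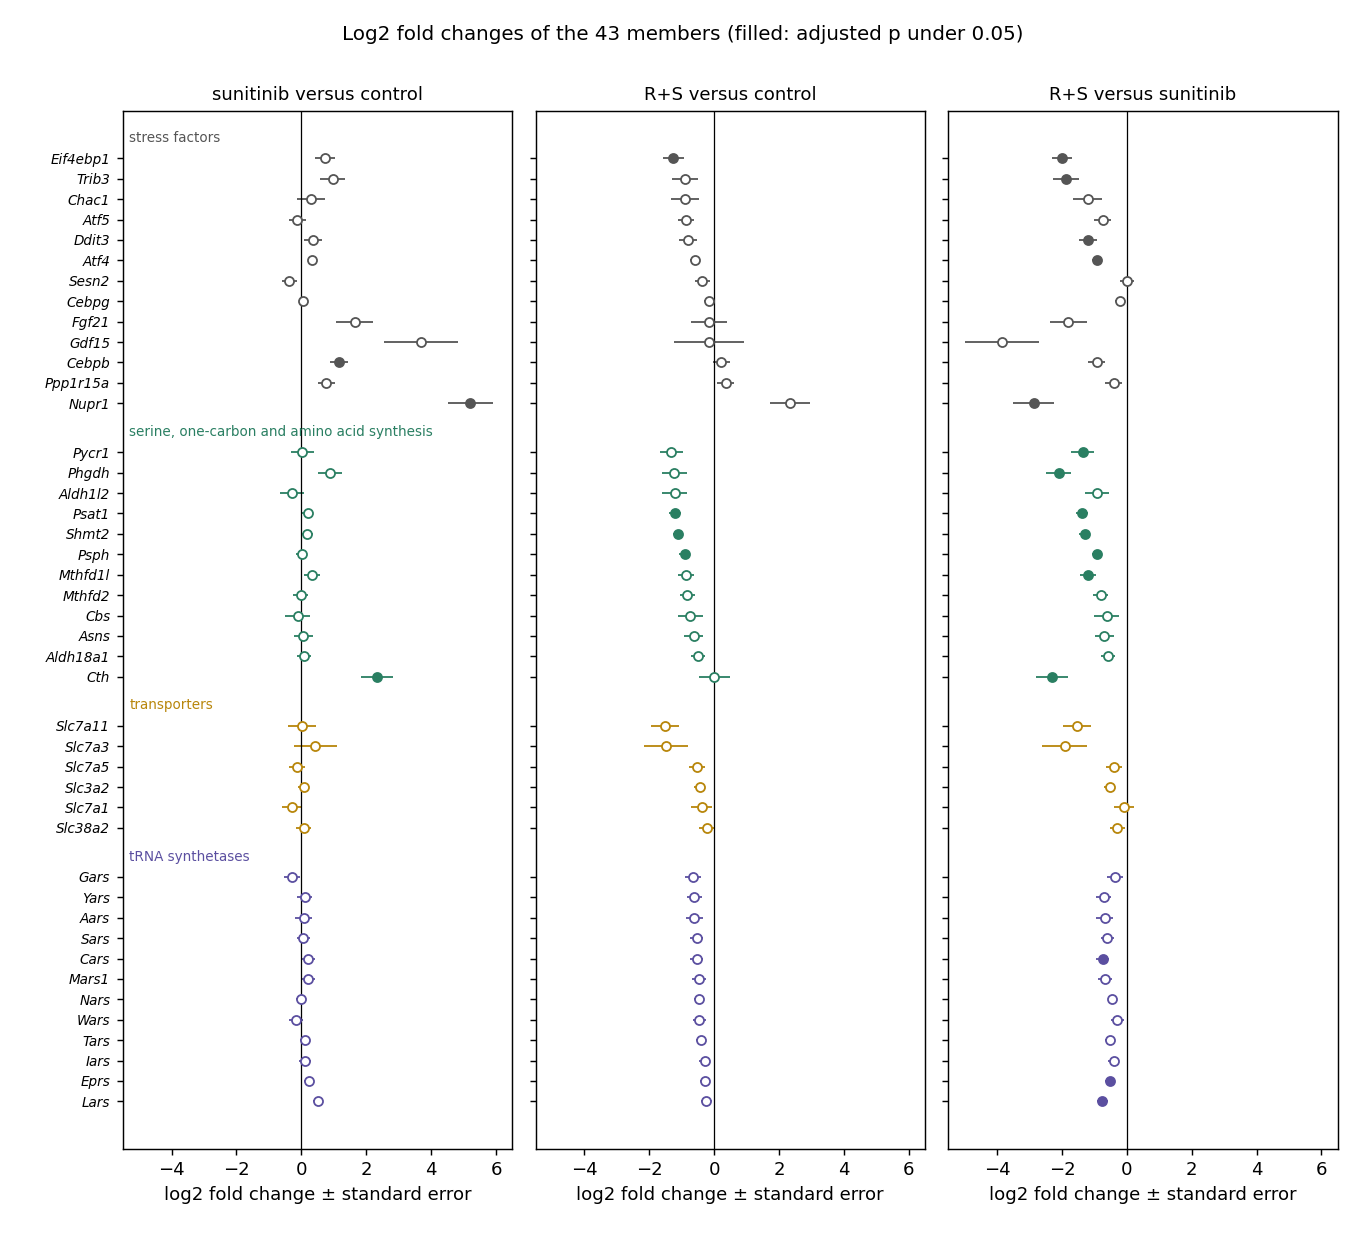
Log2 fold change of each member (points) with its standard error (lines) in the 3 comparisons, ordered within each role by the R+S against control value. Filled points passed an adjusted p under 0.05: 3 members with sunitinib against control, 4 with R+S against control and 15 with R+S against sunitinib.

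Among the stress factors, Atf4 itself was measured at 304, 383, 277 and 245 CPM in control tumors 1 to 4, at 341, 334, 391 and 468 CPM in sunitinib tumors 5, 6, 8 and 12, and at 197, 193, 213 and 209 CPM in R+S tumors 4, 5, 7 and 10. This order of the tumors is kept for every gene below. All R+S tumors lay below all tumors of both other groups, and the control and sunitinib tumors overlapped. Atf4 fell with R+S against sunitinib (log2 fold change -0.92, SE 0.15, adjusted p = 0.0233), and against control the value just missed the threshold (log2 fold change -0.57, SE 0.15, adjusted p = 0.0578). Its log2 fold change with sunitinib against control was 0.34 (adjusted p = 0.242).

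Ddit3, which encodes the pro-apoptotic factor CHOP downstream of ATF4, stood at 77.3, 82.2, 39.9 and 35.1 CPM in control tumors, 70.05, 84.7, 64.0 and 84.3 CPM in sunitinib tumors and 24.2, 41.4, 38.4 and 29.4 CPM in R+S tumors. The control tumors fell into a pair at the sunitinib level and a pair at the R+S level, and sunitinib and R+S did not overlap. Ddit3 fell with R+S against sunitinib (log2 fold change -1.18, SE 0.28, adjusted p = 0.0346). Trib3, a pseudokinase induced by ATF4 and CHOP, read 27.8, 29.8, 13.5 and 10.7 CPM in control, 44.8, 22.9, 47.7 and 44.2 CPM in sunitinib and 5.71, 12.1, 16.7 and 9.23 CPM in R+S tumors, where sunitinib tumor 6 was the low value of its group. Trib3 also fell with R+S against sunitinib (log2 fold change -1.87, SE 0.41, adjusted p = 0.0295). Ddit3 overlaps Mars1 on the opposite strand at its end, and the strand setting of the counting is not given in the sources used here.

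Eif4ebp1 encodes 4E-BP1, which holds back cap-dependent translation until mTOR phosphorylates it, and it is also a known ATF4 target in beta cells. It was at 12.6, 29.9, 12.3 and 9.44 CPM in control, 30.4, 22.0, 28.4 and 26.4 CPM in sunitinib and 5.94, 7.52, 6.53 and 6.98 CPM in R+S tumors. The R+S tumors were the lowest 4 of the 12 and close to each other, and control tumor 2 reached the sunitinib range. Eif4ebp1 fell with R+S against sunitinib (log2 fold change -1.99, SE 0.32, adjusted p = 0.0221) and against control (log2 fold change -1.25, SE 0.31, adjusted p = 0.0449). Without control tumor 2 the log2 fold change against control was -0.76. The call against control was lost with tumors summed by prefix (adjusted p 0.0916) and on leaving out control tumor 1, control tumor 3 or any R+S tumor, with adjusted p between 0.0545 and 0.128.

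Nupr1, a small chromatin protein first known for its induction in acute pancreatitis, had the highest log2 fold change of the 43 members with sunitinib. Control tumors held 14.8, 23.8, 8.45 and 4.43 CPM, sunitinib tumors 372, 527, 735 and 279 CPM and R+S tumors 37.5, 130.1, 19.9 and 75.1 CPM. Every sunitinib tumor was above every other tumor, while R+S tumor 7 lay within the control range. Nupr1 rose with sunitinib against control (log2 fold change 5.21, SE 0.70, adjusted p = 0.000974) and fell with R+S against sunitinib (log2 fold change -2.87, SE 0.63, adjusted p = 0.0299). Against control the R+S value did not pass (log2 fold change 2.35, SE 0.62, adjusted p = 0.0552), whereas it passed in DESeq2, in the fit of 8 tumors, with tumors summed by prefix and without R+S tumor 7 (adjusted p 0.00125, 0.043, 0.0459 and 0.045). The acinar sum was highest in sunitinib tumors 6 and 8 and lowest among treated tumors in R+S tumor 7, as Nupr1 was. Sunitinib tumor 12 had an acinar sum of 12928 CPM, and R+S tumors 5 and 10, with less Nupr1, had 14542 and 19410 CPM. The part of acinar cells in the Nupr1 values was not tested. With the acinar markers in the model the log2 fold change with sunitinib was 1.99 and with R+S against control -0.46, neither past the threshold. These fits passed 0 genes against control and cannot tell the acinar level from treatment.

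**Figure D3:**
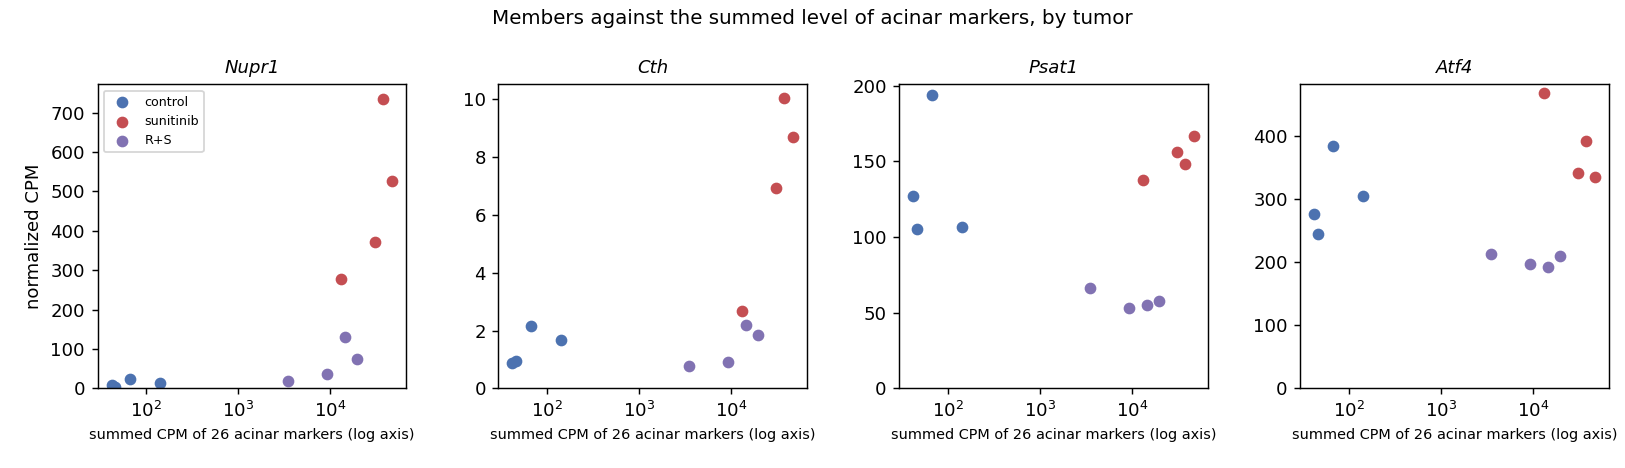
Normalized CPM of Nupr1, Cth, Psat1 and Atf4 (linear axes from 0) against the summed CPM of 26 acinar markers (log axis), 1 point per tumor. Nupr1 and Cth are highest in the tumors with the largest acinar sums (up to 46257 CPM), whereas the R+S tumors have the lowest Psat1 and Atf4 values at sums of 3482 to 19410 CPM.

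Cebpb, one of the C/EBP partners of ATF4, was at 6.33, 6.14, 3.22 and 4.65 CPM in control, 10.3, 11.6, 8.73 and 14.8 CPM in sunitinib and 4.44, 5.30, 6.96 and 7.06 CPM in R+S tumors. The sunitinib tumors lay above all others. Cebpb rose with sunitinib against control (log2 fold change 1.16, SE 0.27, adjusted p = 0.0307), a call lost without control tumor 3, control tumor 4 or sunitinib tumor 12 (adjusted p 0.089, 0.0998 and 0.0725). With R+S against sunitinib it did not pass (log2 fold change -0.93, SE 0.27, adjusted p = 0.0552). Of the 50-base words of Cebpb 18.1% occur in other annotated transcripts. Cebpg, a C/EBP protein without a transactivation domain, ranged only from 101 to 169 CPM over the 12 tumors, with log2 fold changes of 0.05, -0.17 and -0.22 in the 3 comparisons.

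The other stress factors did not pass in edgeR's test of the 12 tumors in any comparison, while DESeq2 called Fgf21 higher with sunitinib, Atf5 lower with R+S against control, and Chac1, Atf5 and Fgf21 lower with R+S against sunitinib. Ppp1r15a, the regulatory subunit GADD34 that brings phosphatase to eIF2, ranged over 14.4 to 21.9 CPM in control and 23.1 to 48.7 CPM in sunitinib tumors, with a log2 fold change of 0.76 (SE 0.26, adjusted p = 0.136), or 0.43 without sunitinib tumor 6. Gdf15, a secreted stress cytokine, was at 0.893, 27.4, 0.923 and 1.32 CPM in sunitinib tumors and at 0.344 to 0.941 CPM in control tumors, so that its log2 fold change of 3.70 (SE 1.13, adjusted p = 0.102) came to 0.83 without sunitinib tumor 6. Against sunitinib the R+S value of Gdf15 was -3.85 (SE 1.14, adjusted p = 0.0604), or -0.98 without that tumor. Sesn2, a leucine-sensing inhibitor of mTORC1, had the lowest log2 fold change of the role with sunitinib against control, -0.38 (SE 0.23, adjusted p = 0.396), and the highest with R+S against sunitinib, 0.01 (SE 0.23, adjusted p = 0.987). Chac1, a glutathione-degrading enzyme, ranged over 20.6 to 52.1 CPM in control, 12.6 to 51.0 CPM in sunitinib and 10.2 to 26.2 CPM in R+S tumors. Atf5, a factor related to ATF4, ranged over 171 to 374 CPM, 195 to 267 CPM and 98.9 to 188 CPM in the same order. Fgf21, a secreted metabolic hormone, stayed between 0.381 and 4.46 CPM in all tumors.

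In the serine branch, Phgdh, Psat1 and Psph carry glucose-derived 3-phosphoglycerate to serine in that order. Psat1, the transaminase, was at 107, 194, 127 and 105 CPM in control, 156, 167, 148 and 138 CPM in sunitinib and 53.2, 55.1, 66.2 and 57.5 CPM in R+S tumors. All 4 R+S tumors were below all 8 others, which overlapped. Psat1 fell with R+S against control (log2 fold change -1.20, SE 0.18, adjusted p = 0.00362) and against sunitinib (log2 fold change -1.39, SE 0.18, adjusted p = 0.0143). The call against control held on leaving out each tumor in turn, with log2 fold changes from -1.30 to -0.96. With the acinar markers in the model the log2 fold change was -0.41. That fit passed 0 genes and cannot tell the acinar level from treatment against control.

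Psph, the phosphatase that releases serine, was at 20.5, 26.6, 17.7 and 15.8 CPM in control, 19.6, 22.5, 20.02 and 19.0 CPM in sunitinib and 11.1, 10.05, 10.4 and 11.5 CPM in R+S tumors. Again the R+S tumors lay apart from the overlapping control and sunitinib tumors. Psph fell with R+S against control (log2 fold change -0.90, SE 0.16, adjusted p = 0.00998) and against sunitinib (log2 fold change -0.91, SE 0.16, adjusted p = 0.0246). Phgdh, the dehydrogenase of the first step, was at 9.39, 31.4, 11.1 and 8.57 CPM in control, 23.6, 20.9, 31.2 and 35.5 CPM in sunitinib and 6.91, 6.59, 6.80 and 5.59 CPM in R+S tumors. Its R+S tumors were the lowest, and control tumor 2 lay within the sunitinib range. Phgdh fell with R+S against sunitinib (log2 fold change -2.10, SE 0.39, adjusted p = 0.0252) and did not pass with sunitinib against control (log2 fold change 0.88, SE 0.37, adjusted p = 0.219), where leaving out control tumor 2 gave a call (1.52, adjusted p = 0.00267). Of the 50-base words of Phgdh 47.8% occur in other annotated transcripts, and of those of Psph 8.82%, so reads of these genes could have been lost or shared in counting.

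Shmt2 splits serine into glycine and a one-carbon unit in mitochondria. It was at 94.9, 129, 100.01 and 87.3 CPM in control, 119, 87.4, 119 and 142 CPM in sunitinib and 42.2, 43.3, 56.1 and 48.7 CPM in R+S tumors, with the R+S tumors wholly below the rest. Shmt2 fell with R+S against control (log2 fold change -1.11, SE 0.17, adjusted p = 0.00365) and against sunitinib (log2 fold change -1.29, SE 0.17, adjusted p = 0.0143). It overlaps Ndufa4l2 on the opposite strand. Mthfd1l, which frees formate for export from mitochondria, was at 24.9, 25.3, 25.7 and 24.8 CPM in control, 22.0, 41.6, 20.1 and 42.2 CPM in sunitinib and 12.2, 10.7, 15.9 and 16.3 CPM in R+S tumors. The control tumors were almost level, the sunitinib tumors split into a low and a high pair, and the R+S tumors were below both groups. Mthfd1l fell with R+S against sunitinib (log2 fold change -1.19, SE 0.25, adjusted p = 0.0277), while against control it did not pass (log2 fold change -0.87, SE 0.25, adjusted p = 0.0722), and with sunitinib against control the log2 fold change was 0.32 (SE 0.25, adjusted p = 0.499).

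Mthfd2, the mitochondrial folate dehydrogenase between these enzymes, was at 148, 241, 165 and 157 CPM in control, 199, 106, 212 and 186 CPM in sunitinib and 75.7, 93.0, 122 and 112 CPM in R+S tumors. Sunitinib tumor 6 lay within the R+S range, and the other sunitinib tumors did not. Its log2 fold change was -0.82 (SE 0.24, adjusted p = 0.0736) with R+S against control and -0.81 (SE 0.24, adjusted p = 0.0582) against sunitinib. Aldh1l2, a mitochondrial folate enzyme, had the lowest log2 fold change of the role with sunitinib against control, -0.29 (SE 0.37, adjusted p = 0.699), and ranged over 51.4 to 139 CPM in control, 34.9 to 115 CPM in sunitinib and 28.5 to 47.6 CPM in R+S tumors.

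Asns, which makes asparagine and is a classic ATF4 target, was at 232, 344, 256 and 238 CPM in control, 293, 113, 354 and 353 CPM in sunitinib and 139.7, 163, 187 and 201 CPM in R+S tumors. The R+S tumors were below all control tumors, and sunitinib tumor 6 was the lowest of the 12. The log2 fold change of Asns was -0.63 (SE 0.30, adjusted p = 0.261) with R+S against control and -0.69 (SE 0.30, adjusted p = 0.146) against sunitinib, neither past the threshold. Pycr1, which completes proline synthesis, was at 16.8, 53.3, 29.1 and 26.2 CPM in control, 31.3, 17.5, 46.0 and 33.7 CPM in sunitinib and 13.0, 9.39, 13.2 and 14.8 CPM in R+S tumors. Pycr1 fell with R+S against sunitinib (log2 fold change -1.35, SE 0.35, adjusted p = 0.0422). This call held on leaving out sunitinib tumor 5 or 6 and was lost on leaving out any of the other 6 tumors (adjusted p 0.0731 to 0.125). Against control Pycr1 had the lowest log2 fold change of the role but missed the threshold (log2 fold change -1.32, SE 0.35, adjusted p = 0.0572). Aldh18a1, the enzyme that opens the proline route, had the highest log2 fold change of the role against sunitinib, -0.58 (SE 0.21, adjusted p = 0.1).

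Cth and Cbs carry sulfur from homocysteine to cysteine, and only Cth passed a test. Cth was at 1.67, 2.17, 0.862 and 0.958 CPM in control, 6.94, 8.70, 10.1 and 2.66 CPM in sunitinib and 0.915, 2.20, 0.761 and 1.83 CPM in R+S tumors. The sunitinib tumors were the highest 4, tumor 12 least so, and control and R+S overlapped. Cth rose with sunitinib against control (log2 fold change 2.32, SE 0.50, adjusted p = 0.0198) and fell with R+S against sunitinib (log2 fold change -2.31, SE 0.50, adjusted p = 0.0291), with no difference detected between R+S and control (log2 fold change 0.01, SE 0.48, adjusted p = 0.992). Like Nupr1 it was highest in tumors with large acinar sums. Sunitinib tumor 12 held 2.66 CPM of Cth, and R+S tumors 5 and 10, with larger acinar sums, held 2.20 and 1.83 CPM. The part of acinar cells in the Cth values was not tested. With the acinar markers in the model the log2 fold change of Cth with sunitinib was -1.08. That fit passed 0 genes and cannot tell the acinar level from treatment against control. Without control tumor 3 or 4 the call with sunitinib was lost (adjusted p 0.0768 and 0.0748). Cbs ranged over 71.95 to 147 CPM in control, 40.2 to 151 CPM in sunitinib and 38.2 to 77.2 CPM in R+S tumors.

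**Figure D4:**
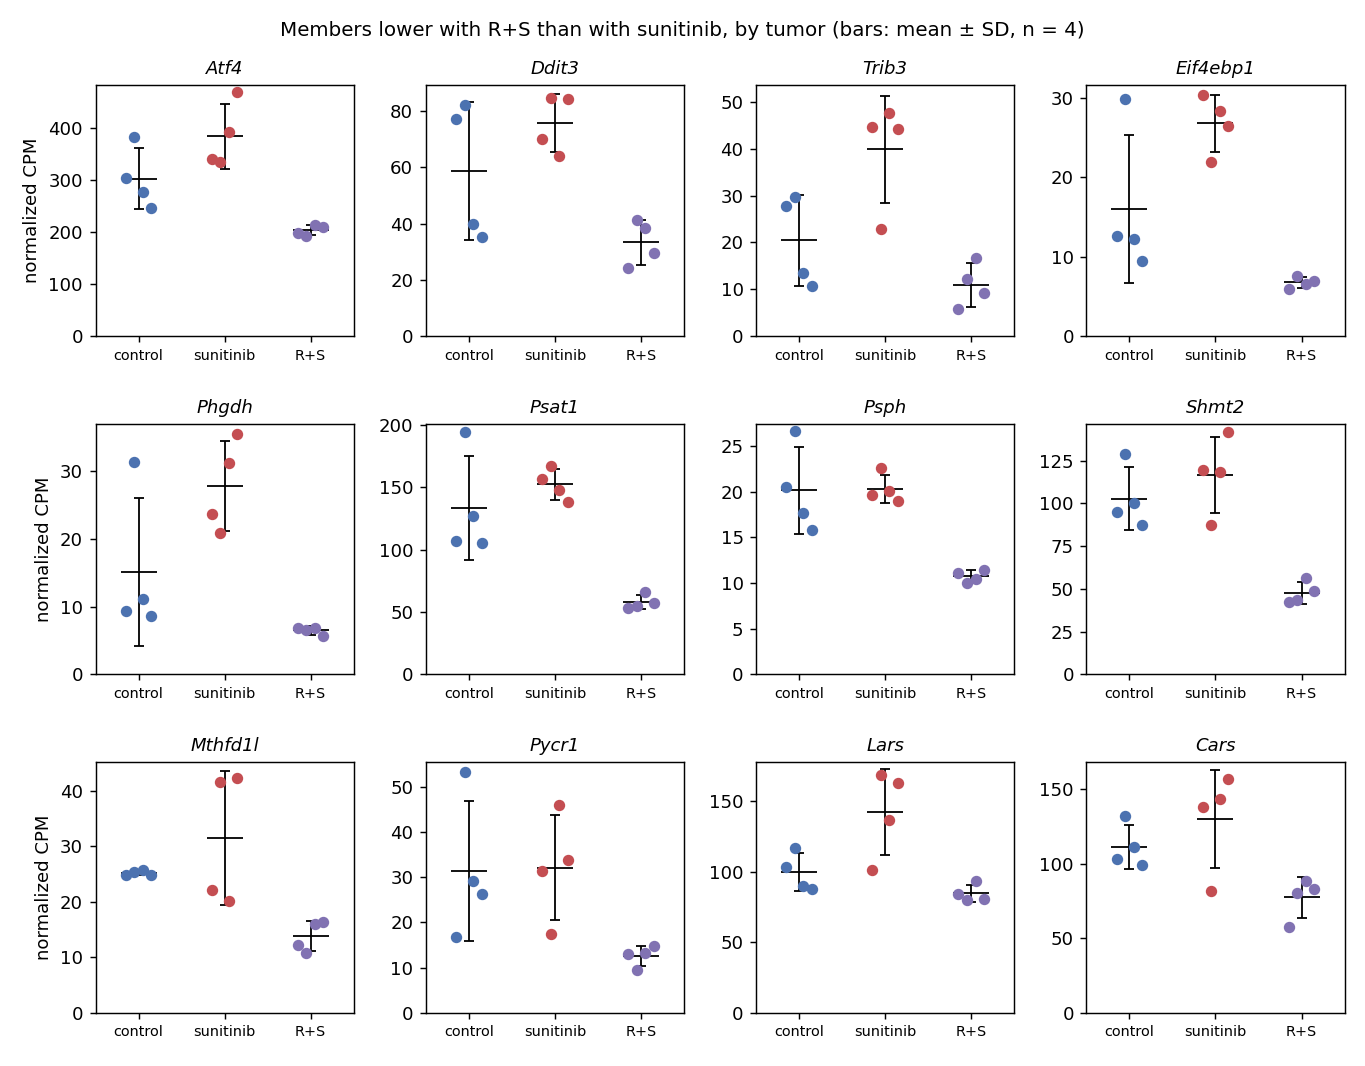
Normalized CPM by tumor (points) with mean and SD (bars, n = 4) for 12 of the 15 members lower with R+S than with sunitinib, axes from 0. R+S values lay below all control values except for Ddit3, Trib3 and Lars, where they overlapped, and for Psat1 they lay between 53.2 and 66.2 CPM, with control tumors at 105 to 194 CPM and sunitinib tumors at 138 to 167 CPM.

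The transporters gave no call in edgeR's test of the 12 tumors, whereas DESeq2 called Slc7a11 lower in both comparisons of R+S and Slc3a2 and Slc7a3 lower against sunitinib. Slc7a11 also passed against sunitinib at 10 reads in every tumor, and Slc3a2 without sunitinib tumor 6. Slc7a11 is the cystine carrier xCT, and Slc3a2 its heavy chain, which Slc7a5, a carrier of leucine and other large amino acids, uses too. Slc7a11 was low, at 2.65 to 9.87 CPM in control, 4.17 to 7.55 CPM in sunitinib and 1.14 to 3.18 CPM in R+S tumors, and R+S lay below sunitinib without overlap. Its log2 fold change was -1.51 (SE 0.44, adjusted p = 0.0783) with R+S against control, the lowest of the role, and -1.53 (SE 0.44, adjusted p = 0.0567) against sunitinib. Slc3a2 ranged over 176 to 252 CPM in control, 165 to 242 CPM in sunitinib and 118 to 176 CPM in R+S tumors, with log2 fold changes of -0.45 (SE 0.17, adjusted p = 0.162) and -0.53 (SE 0.17, adjusted p = 0.0707) for R+S against control and against sunitinib. Slc7a3, a carrier of arginine and lysine, spread from 2.28 to 26.8 CPM among the control tumors alone, with its log2 fold change at 0.43 (SE 0.67, adjusted p = 0.754) with sunitinib against control (0.10 without control tumor 3, 0.11 without control tumor 4 and 1.61 without control tumor 2) and at -1.91 (SE 0.69, adjusted p = 0.0977) with R+S against sunitinib. Slc7a1, the more widely expressed carrier of these amino acids, had the lowest value of the role with sunitinib against control, -0.29 (SE 0.32, adjusted p = 0.648), and the highest with R+S against sunitinib, -0.09 (SE 0.32, adjusted p = 0.877). Slc38a2, a carrier of small neutral amino acids, had the highest value of the role with R+S against control, -0.22 (SE 0.23, adjusted p = 0.62). Slc7a5 ranged over 167 to 289 CPM in control, 126 to 259 CPM in sunitinib and 120.3 to 196 CPM in R+S tumors.

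For the 12 cytosolic synthetases the log2 fold changes spanned a narrow band. With R+S against control all 12 log2 fold changes lay between -0.64 and -0.24, with 0 past the threshold in edgeR's test of the 12 tumors. At an unadjusted p under 0.05 there were 9, beside 20.1% of all tested genes. Against sunitinib all 12 lay between -0.75 and -0.29 with 3 past the threshold, beside 4.58% of all tested genes lower. Against control DESeq2 called Nars, where 1688 of all 16645 tested genes passed. The fit of 8 tumors called Cars, Gars, Nars, Tars and Wars, where 2557 of all 16184 genes tested passed. Lars, which charges leucine, was at 104, 117, 89.8 and 88.1 CPM in control, 101, 169, 137 and 163 CPM in sunitinib and 84.1, 79.99, 93.6 and 80.9 CPM in R+S tumors. Sunitinib and R+S did not overlap, and control lay between them, overlapping both. Lars fell with R+S against sunitinib (log2 fold change -0.75, SE 0.16, adjusted p = 0.0289), the lowest value of the role, and it had the highest value with sunitinib against control (log2 fold change 0.51, SE 0.16, adjusted p = 0.103) and with R+S against control (log2 fold change -0.24, SE 0.16, adjusted p = 0.43).

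Cars, which charges cysteine, was at 103, 132, 111 and 99.3 CPM in control, 138, 81.7, 143 and 157 CPM in sunitinib and 57.3, 80.7, 88.4 and 83.3 CPM in R+S tumors, and sunitinib tumor 6 lay within the R+S range. Cars fell with R+S against sunitinib (log2 fold change -0.75, SE 0.20, adjusted p = 0.0468). This call held on leaving out sunitinib tumor 5 or 6 and was lost on leaving out any of the other 6 tumors (adjusted p 0.0795 to 0.118). Eprs, the fused synthetase for glutamate and proline, was at 292, 355, 248 and 266 CPM in control, 374, 277, 325 and 386 CPM in sunitinib and 229.5, 229.9, 259 and 233 CPM in R+S tumors. The R+S tumors were below all sunitinib tumors and overlapped control. Eprs fell with R+S against sunitinib (log2 fold change -0.52, SE 0.14, adjusted p = 0.0488), a call that held on leaving out sunitinib tumor 6 and was lost on leaving out any of the other 7 tumors, and its log2 fold change with sunitinib against control was 0.23 (SE 0.14, adjusted p = 0.391).

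Of the synthetases that did not pass in that test, Gars, which charges glycine, had the lowest value of the role with sunitinib against control, -0.28 (SE 0.24, adjusted p = 0.552), and with R+S against control, -0.64 (SE 0.24, adjusted p = 0.166). Its control tumors were tight at 428 to 487 CPM, the R+S tumors lay below them at 251 to 319.7 CPM, and the sunitinib tumors spread over 189 to 526 CPM. Nars, for asparagine, and Tars, for threonine, had the smallest p against control, at -0.47 (SE 0.14, adjusted p = 0.0925) and -0.41 (SE 0.15, adjusted p = 0.154). Against sunitinib Tars was at -0.52 (SE 0.15, adjusted p = 0.0555), Yars, for tyrosine, at -0.71 (SE 0.23, adjusted p = 0.0713) and Wars, for tryptophan, at -0.29 (SE 0.20, adjusted p = 0.346), the highest of the role. DESeq2 called Tars, Yars, Nars, Sars and Mars1 lower in that comparison. Aars, Sars, Iars and Mars1, for alanine, serine, isoleucine and methionine, had log2 fold changes of -0.68, -0.60, -0.40 and -0.67 against sunitinib and of -0.60, -0.53, -0.29 and -0.48 against control. Aars shares 13.8% and Iars 7.15% of its 50-base words with other annotated transcripts.

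A further 66 genes of the pathway were read from a list of other synthetases, eIF2 components, ATF4 targets and folate and proline enzymes, and all were tested. With R+S against sunitinib 16 of the 66 fell (24.2%, beside 4.58% of all tested genes) and 0 rose. Among these, 4 of the 8 other cytosolic synthetases fell, Vars (log2 fold change -0.77), Hars (-0.83), Rars (-0.69) and Farsb (-0.63), as did Aimp2 (-0.92) and Eef1e1 (-0.92), 2 of the 3 scaffold proteins of the synthetase complex. Of the 17 mitochondrial synthetases 0 passed, which is close to the 4.58% of all tested genes that were lower. Among the 17, 3 had an unadjusted p under 0.05, beside 30.4% of all tested genes. Their median log2 fold change was -0.04, beside -0.02 over all tested genes. The eIF2 and eIF2B subunits gave 3 of 8 lower, Eif2s1, Eif2s2 and Eif2b1. The 4 eIF2alpha kinases and the phosphatase subunit Ppp1r15b gave 0 of 5, with a median of 0.21. Of these 5 genes 1 had an unadjusted p under 0.05, beside the same 30.4%. Ddit4, which encodes the mTORC1 inhibitor REDD1, fell by 1.87 on the log2 scale, Slc6a9, a glycine carrier, by 1.53, Shmt1, the cytosolic counterpart of Shmt2, by 1.65, and Atf3, a related transcription factor, by 1.02. Lonp1, Tyms and Pycr3 fell too, by 0.66, 0.77 and 0.84.

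In the same list 3 of the 66 genes (beside 1.93% of all tested genes) rose with sunitinib against control, Vars (log2 fold change 0.58), Atf3 (1.16) and Ddit4 (1.34), and 3 (beside 2.61%) fell with R+S against control, Slc6a9 (-1.29), Tyms (-0.73) and Pycr3 (-0.67). The counts in the opposite directions were 0 of 66 each, beside 2.55% and 1.55% of all tested genes, with 17 and 21 genes at an unadjusted p under 0.05 in either direction, beside 19.5% and 20.1%. With R+S against control 0 of the 66 passed without control tumor 2, 3 or 4 or without R+S tumor 4, 5 or 7, and the 16 calls against sunitinib fell to 0 without R+S tumor 4, 5 or 7 and in the fit of 8 tumors. The mean of Ddit4 was 20.2 CPM in control, 51.1 CPM in sunitinib and 13.9 CPM in R+S tumors, and the sunitinib tumors lay above all others. Sunitinib tumor 6 held 103 CPM of Ddit4 and the other 3 averaged 33.9 CPM, and without it the log2 fold change with sunitinib was 0.75 (adjusted p = 0.0142). That tumor held 52.1 CPM of Shmt1, against 14.7 to 19.7 CPM in the other sunitinib tumors, and without it the log2 fold change of Shmt1 with R+S against sunitinib was -1.05 (adjusted p = 0.0214). The call of Ddit4 with sunitinib was lost on leaving out any 1 control tumor or sunitinib tumor 12. That of Atf3 was lost on leaving out any 1 control tumor (adjusted p 0.059 to 0.0951), and that of Vars held on leaving out each tumor in turn.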

How the data were processed

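RNA-seq of 12 PanNETs (3 groups of 4, taken from the sample labels) was analysed. The authors deposited 1 table of raw counts per tumor, whole numbers of reads per Ensembl gene without normalization. Per the labels, total RNA (miRNAeasy) went into Illumina TruSeq Stranded mRNA libraries. The submitters' processing notes name cutadapt 1.2.1, TopHat2 2.0.9, HTSeq 0.5.4p3 and GRCm38. Their options, the strand setting and the annotation release are not given in the sources used here. The 5 closing summary lines of each table were left out.

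Symbols, exon lengths and 50-base words shared with other genes were taken from GENCODE M21 (GRCm38), which named 37607 of the 38924 identifiers. Genes were filtered with filterByExpr of edgeR 4.0.16 in R 4.3.3 (minimum count 10, minimum total 15) and normalized by TMM. Then 1 quasi-likelihood model (glmQLFit, robust) of all 12 tumors was fitted, with glmQLFTest for 3 contrasts, two-sided, and Benjamini-Hochberg adjustment over 16645 genes (threshold 0.05). SE is the size of the log2 fold change divided by the root of F. Log2 CPM in plots used a prior count of 2. Alternatives were DESeq2 1.42.0, other scalings and filters, fits of 8 tumors and an acinar covariate (mean log2 CPM of 26 markers). Further ones were treated tumors summed by title prefix, with the control tumors kept as single samples, and each tumor left out. The procedure was tested on simulated data. The tumors held 31872342 to 44215054 reads on genes, and depth covers counting error only.

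The members and lists were chosen with earlier results of these data known, so no test over a list was made. Named in each contrast were members past the threshold, the highest and lowest log2 fold change of each role, and the 2 smallest p per role that missed it. Per-tumor values were given for members past any threshold and for Atf4, Ddit3, Asns, Psat1 and Mthfd2. Genes past the threshold in the wider list were also named. Cars, Wars, Nars, Lars, Eif4ebp1, Aldh1l2, Cth, Slc7a5 and Slc7a3 matched no promoter in the table used. Some promoter matches are not reported here.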

Additional observations from a re-analysis of the deposited data

Results flagged for a closer look

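In each group of 4 tumors the gap between the highest or lowest tumor and its nearest neighbour was taken on log2 CPM. It was compared with the range of the group on that scale (Dixon's criterion at 95%). Of 129 groups, 43 members in 3 treatments, 14 were past it, and chance passes about 1 in 20 groups. The ratio of gap to range on the log2 scale is given for each, with the levels in plain CPM.

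Sunitinib tumor 6 accounts for 9 of the 14. It was the lowest of its group for Trib3 at 22.9 CPM (ratio 0.897, other tumors from 44.2 CPM), Chac1 at 12.6 CPM (0.885, others from 43.4 CPM), Asns at 113 CPM (0.835, others from 293 CPM), Aldh18a1 at 85.4 CPM (0.847, others from 138 CPM), Aars at 196 CPM (0.916, others from 409.1 CPM), Mars1 at 105 CPM (0.926, others from 201 CPM) and Tars at 79.3 CPM (0.941, others from 114 CPM). It was the highest for Ppp1r15a at 48.7 CPM (0.904, others up to 24.9 CPM) and Gdf15 at 27.4 CPM (0.89, others up to 1.32 CPM). This tumor also had the lowest summed beta cell markers of the 12, 4692 CPM, of which Chga held 2849 CPM. Its summed acinar markers were the highest of the 12, 46257 CPM. The part of either in these values was not tested.

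Control tumor 2 was the highest of its group for Iars at 133 CPM (0.907, others up to 101 CPM) and Tars at 125 CPM (0.878, others up to 90.9 CPM). Control tumor 1 was the lowest for Slc38a2 at 243 CPM (0.905, others from 349 CPM). R+S tumor 4 was the lowest for Cebpg at 101 CPM (0.857, others from 122 CPM), and R+S tumor 7 was the highest for Eprs at 259 CPM (0.87, others up to 233 CPM).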

How the results depend on the processing

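No paired analysis was possible because the groups share fewer than 2 replicate numbers and the labels tie no tumor of one group to a tumor of another.

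DESeq2 called 5 members higher with sunitinib against control (1477 genes in all, against 745), 13 lower and 1 higher with R+S against control (1688 in all, against 693), and 28 lower with R+S against sunitinib (3008 in all, against 1200). Fits of only the 8 tumors compared gave 380, 2557 and 3 genes in the same order, with 15 members lower and 1 higher with R+S against control and 3 lower with R+S against sunitinib. At least 10 reads in every tumor left 408 genes with sunitinib against control, and no filter left 501 with R+S against sunitinib. Summing the treated tumors by prefix, with the control tumors kept single, left 1 member higher with sunitinib. It gave 1 higher with R+S against control, where Eif4ebp1 was lost. With R+S against sunitinib it kept 10 of the 15 and added Mars1. The shares of all genes tested with an unadjusted p under 0.05 were 24%, 22.1% and 31.2% in the same order.

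With the acinar markers as a covariate, 0 genes and 0 members passed in either comparison with control (815 and 735 genes at an unadjusted p under 0.05), and 260 genes and 6 members with R+S against sunitinib. The acinar sums of control and treated tumors do not overlap, so the covariate and treatment against control cannot be told apart. Role medians for the serine group, transporters and synthetases became 1.16, 1.25 and 0.69 with sunitinib against control and 0.14, 0.25 and 0.19 with R+S against control. Over the 43 members 12 and 25 signs turned in these comparisons. Of the members named for them these were, in the first, Sesn2 (0.63), Gdf15 (-3.35), Ppp1r15a (-0.44), Cth (-1.08), Aldh1l2 (1.64) and Gars (0.68), and in the second, Nupr1 (-0.46), Cth (-2.89), Pycr1 (0.80), Slc38a2 (0.0098), Slc7a11 (0.94), Slc3a2 (0.49), Gars (0.18) and Tars (0.27).

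Leaving out 1 tumor at a time, 1 to 5 members were higher with sunitinib against control (440 to 902 genes in all), 0 to 1 were higher with R+S against control, the 1 being without R+S tumor 7 (292 to 621 genes in all), and 0 to 27 were lower with R+S against sunitinib (0 to 2861 in all). Calls were gained without sunitinib tumor 5 for Lars with sunitinib against control (adjusted p 0.0145) and for Gdf15 and Cebpb with R+S against sunitinib (0.0285 and 0.0436), and without control tumor 1 for Pycr1 with R+S against control (0.0326). Some values near 0 changed sign. Cth with R+S against control was -0.0265 by library size only, -0.0183 by upper-quartile scaling, -0.0012 with tumors summed by prefix and -0.27 to 0.29 on leaving out 1 tumor. Sesn2 with R+S against sunitinib was -0.0042 by DESeq2 and by its size factors in edgeR, -0.0192 by upper-quartile scaling, -0.0125 at 10 reads in every tumor, -0.15 with the acinar covariate and -0.14 to 0.19 on leaving out 1 tumor. Slc7a1 in that comparison was 0.16 with tumors summed by prefix and -0.31 to 0.22 on leaving out 1 tumor, and Aldh1l2 with sunitinib against control was -0.59 to 0.0215. The causes were not tested. DESeq2 gave Gdf15 no adjusted p.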
